A study of Mus musculus with 3072 samples.

Results

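Scoc and Clgn are convergent neighbours on mouse chromosome 8. They were chosen by measured values: both stood higher in Apoe knockout microglia in earlier results of these data, so their ratios between knockout and Apoe-carrying groups are a description and carry no test. They are 2 of the 29474 genes of the count table. Single microglia of male mice, live CD11b+ and DAPI-negative cells sorted from cortex or hippocampus, were sequenced one well at a time by a modified SmartSeq2 protocol, which reads polyA RNA along its length without molecular identifiers. Of 8 groups in the labels, 6 had counts, and the cells that carried a read total in the labels numbered 1713. The APP/PS1 mice carry the APPswe/PS1dE9 transgenes, a model of amyloid deposition, and the APP/PS1-ApoeKO mice are a homozygous Apoe-null line bred from a cross of them with Apoe-null C57BL/6 mice.

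The Apoe-carrying groups were APP/PS1 cortex at 17 months (311 cells), APP/PS1 hippocampus at 17 months (273 cells) and C57BL/6 cortex at 18 months (326 cells). The Apoe-null groups, all at 18 months, were APP/PS1-ApoeKO cortex (169 cells), APP/PS1-ApoeKO hippocampus (321 cells) and C57BL/6-ApoeKO cortex (313 cells). C57BL/6 mice carry no amyloid transgene and served as the control strain, with C57BL/6-ApoeKO as its Apoe-null counterpart. APP/PS1 mice of 18 months were not analysed here. No animal is named in the labels; a group therefore counts as 1 sample, its cells are not replicates, and no p-value is given; each knockout comparison sets one mouse line against another. The 2 APP/PS1 comparisons set 18 against 17 months and different sequencing lanes, so that genotype, age and lane cannot be told apart in them. The C57BL/6 comparison shares its age and its lanes, 37 and 38.

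Reads per cell ranged from 68354 to 1320640 over the 6 groups, with group medians of 442917 to 765703. Apoe, the gene deleted in the knockout lines, was at 13406 RPM (reads of the gene scaled to 1000000 counted reads) in APP/PS1 cortex, 11919 in APP/PS1 hippocampus and 485 in C57BL/6 cortex. It was at 0.0669, 0.746 and 2.96 RPM in the matching knockout groups, so each library set followed its label. All 7 microglial markers were read in each group, with a summed level of 42913 to 50699 RPM.

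Scoc encodes short coiled-coil protein, a small protein of the Golgi that binds Arl GTPases and the adaptor Fez1, and that takes part in the start of autophagy. Autophagy begins when the Ulk1 kinase complex and a lipid kinase complex around Becn1 and Pik3c3 make the membrane that will enclose cell contents. Clgn encodes calmegin, a lectin chaperone of the endoplasmic reticulum related to calnexin, which holds newly made glycoproteins while they fold and is best known from male germ cells, where it is needed for sperm to bind the egg. Microglia are the resident macrophages of the brain.

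In the GENCODE vM21 annotation of build GRCm38, Clgn (ENSMUSG00000002190.13) lies at chr8:83389867-83428552 on the plus strand and Scoc (ENSMUSG00000063253.11) at chr8:83430084-83458391 on the minus strand. The 2 genes point toward each other, their 3′ ends are 1531 bases apart, and 0 other annotated genes overlap either. Scoc has 10 annotated transcripts, 6 of them coding, with a longest coding transcript of 1791 bases, and Clgn has 2 with a longest of 3902 bases. Of the 1742 windows of 50 bases in the longest Scoc transcript, 216 (12.4%) also occur in 1 other gene, the processed pseudogene Gm7335 on chromosome 17, and 0 of the 3853 Clgn windows occur elsewhere. Gm7335 was counted at 0.391 to 0.944 RPM in the 6 groups, and 0 windows were shared between Scoc and Clgn.

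Of the 2 genes, 1 had entries in the RefSeq promoter table of build GRCm38.p6: Scoc, with an outer and an inner start. The table has no entry for Clgn. Both Scoc promoters are shown because the counts are per gene and do not say from which start the Scoc reads came. Each runs from 250 bases before to 50 bases after the start, on the minus strand; the outer one is chr8:83458347-83458646 and the inner one chr8:83442613-83442912. Capitals mark the CCAAT box (CCAAT, read on the opposite strand as ATTGG).
Scoc outer start: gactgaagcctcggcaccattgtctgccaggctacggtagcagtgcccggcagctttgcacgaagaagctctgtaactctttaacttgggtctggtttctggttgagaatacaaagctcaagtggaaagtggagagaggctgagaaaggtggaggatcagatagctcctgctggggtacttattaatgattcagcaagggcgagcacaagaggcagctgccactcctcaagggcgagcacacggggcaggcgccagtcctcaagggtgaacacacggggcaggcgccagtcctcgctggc
Scoc inner start: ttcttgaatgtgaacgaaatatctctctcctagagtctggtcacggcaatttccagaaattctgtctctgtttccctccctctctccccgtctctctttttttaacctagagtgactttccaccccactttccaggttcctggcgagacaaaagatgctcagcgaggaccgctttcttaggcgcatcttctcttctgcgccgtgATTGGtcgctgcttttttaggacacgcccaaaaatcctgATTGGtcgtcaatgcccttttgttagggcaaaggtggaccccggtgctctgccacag
The inner promoter holds 2 CCAAT boxes, whose first bases lie 46 and 7 bases before the start, and the outer promoter holds 0. CCAAT is found on either strand in 37.4% of the 32851 promoters of this length in the table. Of the 7 other motifs searched on both strands, 0 are in either window. They were the TATA box TATAAA (in 13.6% of the promoters), the E-box CACGTG (7.15%), the cAMP response element TGACGTCA (1.79%) and the GAS element TTCNNNGAA (8.30%). The others were the core bound by interferon regulatory factors, GAAANNGAA (8.56%), the unfolded-protein-response element TGACGTGG (0.676%) and the GC box GGGCGG (35.7%). The motifs were chosen after the results were seen. GC content is 56.7% in the outer and 50% in the inner window.

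Scoc was read in about 1 in 10 microglia of the APP/PS1 groups and in most microglia of each knockout group. Summed over cells, Scoc stood at 8.65 RPM in APP/PS1 cortex, 8.25 in APP/PS1 hippocampus and 15.2 in C57BL/6 cortex. The matching Apoe-null groups gave 167.5 RPM for APP/PS1-ApoeKO cortex, 165.7 for APP/PS1-ApoeKO hippocampus and 197.5 for C57BL/6-ApoeKO cortex. The lowest knockout group was thus above the highest Apoe-carrying group, and the 3 knockout groups lay close to each other.

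The share of cells with a Scoc read was compared after each cell was thinned to 100000 reads, which left out 8 shallower cells. It was 9.65% in APP/PS1 cortex (30 of 311 cells, exact 95% interval 6.60 to 13.5%), 10.3% in APP/PS1 hippocampus (28 of 272, 6.95 to 14.5%) and 15.6% in C57BL/6 cortex (51 of 326, 11.9 to 20.1%). It was 63.3% in APP/PS1-ApoeKO cortex (107 of 169, 55.6 to 70.6%), 73.7% in APP/PS1-ApoeKO hippocampus (235 of 319, 68.5 to 78.4%) and 72.4% in C57BL/6-ApoeKO cortex (223 of 308, 67.1 to 77.3%). Without thinning the shares were 9.97, 10.99 and 17.5% with Apoe and 68.0, 75.7 and 74.8% without it, in the same order. All intervals here cover counting error only, and are too narrow for reads, which are copies made by PCR.

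**Figure D1:**
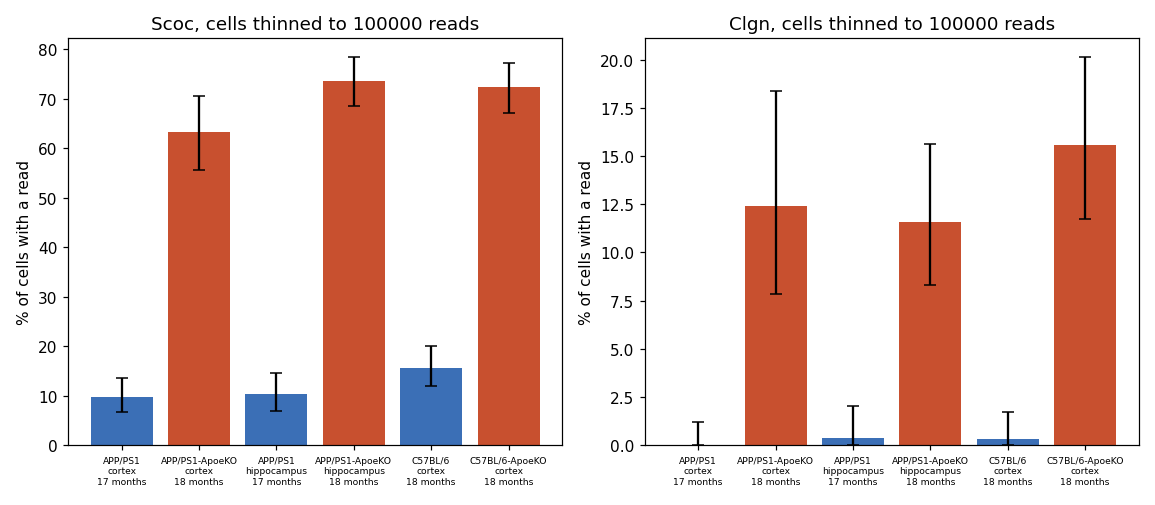
Share of cells (y axis, percent) with at least 1 read of Scoc (left) or Clgn (right) after thinning to 100000 reads, by group (x axis); blue bars carry Apoe, red bars are knockouts, and lines are exact 95% binomial intervals. Scoc lies between 63.3 and 73.7% in the knockout groups and at most 15.6% in the others; the y axes of the panels differ.

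The knockout cells with Scoc also held more of it. Among cells with a read, the median Scoc level was 53.8 RPM in the cortex and 66.0 RPM in the hippocampus of APP/PS1 mice, and 51.3 RPM in C57BL/6 cortex. It was 179, 173 and 207 RPM in the 3 matching knockout groups. At least 100 RPM of Scoc was reached by 1.29, 1.83 and 3.99% of the Apoe-carrying cells and by 51.5, 60.1 and 57.2% of the knockout cells. Single cells weighed on the low groups: the cell with the most Scoc reads held 27.7% of all Scoc reads of APP/PS1 cortex, 20.8% in APP/PS1 hippocampus and 17.9% in C57BL/6 cortex. In the knockout groups that cell held 6.28, 2.12 and 2.29%.

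Clgn was nearly absent from Apoe-carrying cells. APP/PS1 cortex had 0 Clgn reads in 311 cells, with an exact upper limit of 1.18% of cells. The 3 reads taken for this 0 in ratios are 0.0159 RPM. That is not an upper limit of the level, since 1 cell can hold many more reads. APP/PS1 hippocampus had 212 reads, all in 1 cell, and C57BL/6 cortex 20 reads, all in 1 cell, or 1.36 and 0.0828 RPM. In the knockout groups Clgn stood at 37.2 RPM in APP/PS1-ApoeKO cortex, 27.2 in APP/PS1-ApoeKO hippocampus and 48.6 in C57BL/6-ApoeKO cortex. Every knockout group was above every Apoe-carrying group. Without that 1 cell APP/PS1 hippocampus had 0 Clgn reads as well.

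Clgn was read in a minority of the knockout cells, at high levels in some of them. After thinning, the share of cells with Clgn was 12.4% in APP/PS1-ApoeKO cortex (21 of 169 cells, 7.86 to 18.4%), 11.6% in APP/PS1-ApoeKO hippocampus (37 of 319, 8.30 to 15.6%) and 15.6% in C57BL/6-ApoeKO cortex (48 of 308, 11.7 to 20.1%). Without thinning it was 14.8, 13.1 and 17.6%. Of the Apoe-carrying groups, the hippocampus and C57BL/6 cells gave 0.368 and 0.307% after thinning. In the knockout cells with Clgn the median level was 91.1, 99.0 and 79.1 RPM, and the upper quartile 229.5, 448 and 506 RPM. The 5 cells with the most Clgn reads held 71.8, 46.0 and 35.5% of the Clgn reads of the 3 knockout groups, so the summed level rests on few cells.

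**Figure D2:**
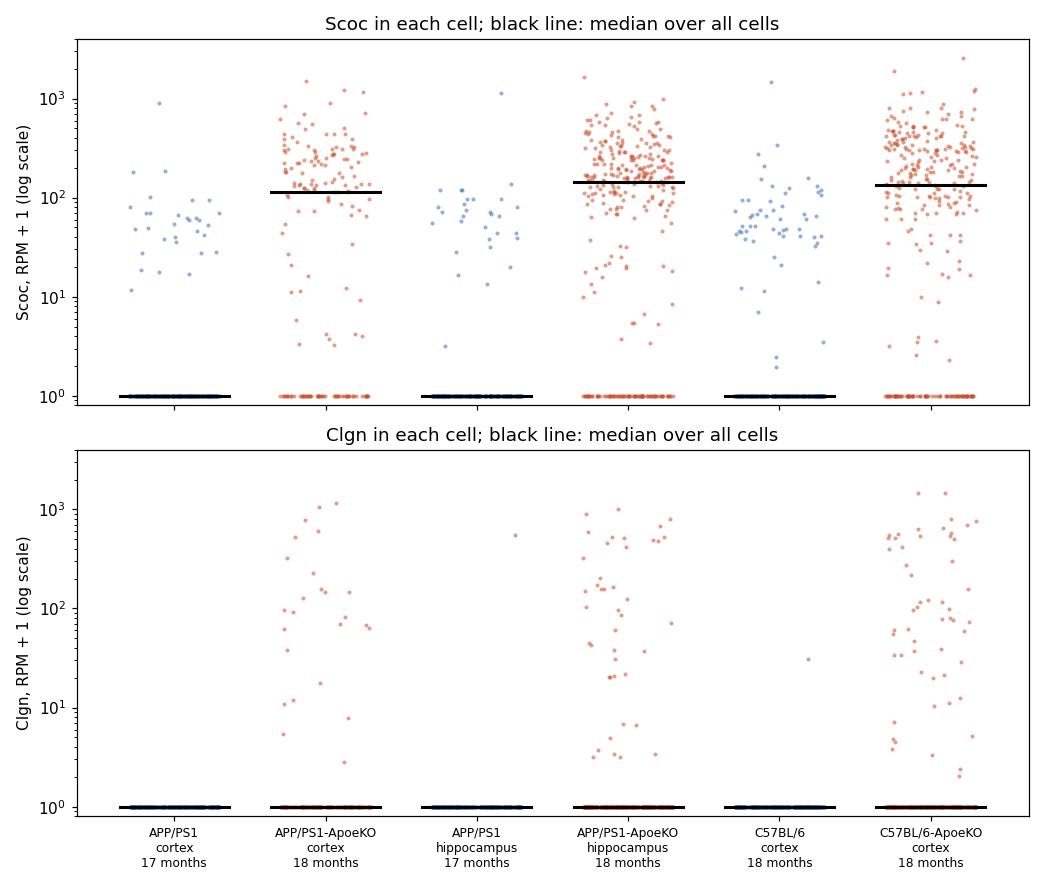
Scoc (top) and Clgn (bottom) in each cell, as RPM + 1 on a log scale (y axis), by group (x axis); each point is a cell, points at 1 are cells without a read, and black lines are medians over all cells. The median Scoc level lies at 112.5 to 142.1 RPM in the knockout groups and at 0 in the others, and the 2 Apoe-carrying cells with Clgn stand alone in their groups.

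Per kilobase of its longest coding transcript, Scoc exceeded Clgn in each knockout group, by 9.82-fold in APP/PS1-ApoeKO cortex, 13.3-fold in APP/PS1-ApoeKO hippocampus and 8.85-fold in C57BL/6-ApoeKO cortex. On that scale, Scoc levels in the knockout groups were 93.5, 92.5 and 110.3 RPM per kilobase and Clgn levels 9.52, 6.98 and 12.5.

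Set against the group of the same tissue that carries Apoe, Scoc was 19.4-fold higher in APP/PS1-ApoeKO cortex (exact 95% count interval 18.4 to 20.4), 20.1-fold in APP/PS1-ApoeKO hippocampus (18.99 to 21.3) and 13.03-fold in C57BL/6-ApoeKO cortex (12.6 to 13.5). Clgn was 2332-fold higher in APP/PS1-ApoeKO cortex with 3 reads taken for the 0 of APP/PS1 cortex. That value is not a lower limit, since the exact count interval of the ratio begins at 1895. Clgn was 20.1-fold higher in hippocampus (17.5 to 23.1), against the 1 cell with 212 reads, and 587-fold in C57BL/6-ApoeKO cortex (380 to 962), against the 1 cell with 20 reads. On the log2(RPM + 0.5) scale, which understates ratios of low genes, the Scoc differences were 4.20, 4.25 and 3.66 and the Clgn differences 6.24, 3.90 and 6.40. Over all genes the median difference was 0.19, 0.07 and 0.04. In APP/PS1 hippocampus the Clgn difference was 5.64 without the cell with most Clgn reads in each group. It was 5.79 without lane 42, which held the Clgn cell, and 3.13 without lane 41.

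Since the pair was chosen on these ratios, the background is given beside them and nothing is read from it. Of the 12703 genes with at least 1 RPM on average over the 6 groups, 16.2% were at least 2-fold higher in APP/PS1-ApoeKO than APP/PS1 cortex, 12.6% in hippocampus and 10.4% in C57BL/6-ApoeKO than C57BL/6 cortex. In all 3 comparisons 1.58% were, Scoc and Clgn among them. With themselves counted, 33, 33 and 49 genes had a log2 difference at least as large as Scoc, and 4, 49 and 3 at least as large as Clgn.

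The C57BL/6 pair shares 2 lanes, and Scoc differed by a similar ratio within each, while the Clgn ratio varied with the few reads of C57BL/6 cells. In lane 37, Scoc was at 201.8 RPM in C57BL/6-ApoeKO and 15.4 in C57BL/6 cells, 13.1-fold apart (12.5 to 13.8). In lane 38 it was at 193.3 and 14.9 RPM, 12.9-fold apart (12.4 to 13.6). Clgn was 232-fold higher in lane 37 (150 to 380.5). In lane 38 it was 2394-fold higher with 3 reads taken for the 0 of C57BL/6 cells, and the exact interval begins at 1947. The share of C57BL/6 cells with Scoc, without thinning, was 21.6% in lane 37 and 13.4% in lane 38, with overlapping intervals (15.5 to 28.7% and 8.60 to 19.6%). Clgn was read in 12.7% of C57BL/6-ApoeKO cells of lane 37 and in 22.4% of those of lane 38, again with overlapping intervals (7.96 to 18.99% and 16.2 to 29.8%).

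Smaller parts of each group, which are not replicates, are given as a description. Each group was split by the plate number in the labels, whose meaning is not stated. Scoc ranged from 130.6 to 214.8 RPM over the 10 knockout parts and from 2.88 to 21.5 RPM over the 12 Apoe-carrying parts. Clgn ranged from 14.9 to 71.6 RPM over the knockout parts and was at 0 in 10 of the 12 others. With the cells of each knockout group split at the median depth, in the shallower and in the deeper cells Scoc was read in 67.9 to 79.5% of cells and Clgn in 11.2 to 20.5%. The Scoc level was lower in the deeper cells of each of the 6 groups. In APP/PS1-ApoeKO cortex, APP/PS1-ApoeKO hippocampus and C57BL/6-ApoeKO cortex it was 177.1, 211.6 and 251.7 RPM in the shallower cells and 161.0, 139.5 and 168.0 RPM in the deeper cells. Median depth was lower in each knockout group than in its match.

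Scoc was at similar levels in both tissues of a line, and the Clgn ratios moved with the cells taken from APP/PS1-ApoeKO cortex. Scoc was 0.953 times as high in hippocampus as in cortex of APP/PS1 mice (0.885 to 1.03) and 0.989 times in APP/PS1-ApoeKO mice (0.968 to 1.01). Clgn in APP/PS1-ApoeKO mice was 0.733 times as high in hippocampus as in cortex (0.698 to 0.769), with the cortex cells in lane 34 and the hippocampus cells in lanes 35 and 36. With the 165 cortex cells of lane 33 included, which have no read total in the labels, Clgn in that cortex was at 26.8 RPM and the ratio 1.02 (0.973 to 1.06), so the difference between tissues is not kept. This alternative was added after the data were seen; it gave 1.00 (0.985 to 1.02) for Scoc. APP/PS1 cortex held 0.571 times as much Scoc as C57BL/6 cortex (0.538 to 0.605), at 17 against 18 months and in other lanes. APP/PS1-ApoeKO cortex held 0.848 times as much Scoc as C57BL/6-ApoeKO cortex (0.831 to 0.866) and 0.764 times as much Clgn (0.732 to 0.797), in lane 34 against lanes 37 and 38. With the lane 33 cells these were 0.837 (0.824 to 0.851) and 0.551 (0.531 to 0.572). Amyloid transgene and lane cannot be told apart in these ratios. These intervals do not count differences between animals, and the comparisons share groups with each other.

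Reads of both genes in the same cell were about as frequent as the product of their shares. In APP/PS1-ApoeKO cortex 20 cells had both where the product gave 17.0, a ratio of 1.18. In APP/PS1-ApoeKO hippocampus 33 cells had both where the product gave 31.8, a ratio of 1.04, and in C57BL/6-ApoeKO cortex 39 where it gave 41.1, a ratio of 0.949. Summed over the 3 groups, 92 of 803 knockout cells had both and the products gave 89.9. Scoc was read in 592 of those cells and Clgn in 122. In the 3 groups, in the same order, Scoc was read in 80.0, 78.6 and 70.9% of the cells with Clgn. Over all cells it was read in 68.05, 75.7 and 74.8%. With Scoc in most cells, the ratio could not rise far above 1 even if every cell with Clgn held Scoc. A ratio near 1 therefore does not show that the 2 genes are independent.

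Read the other way, Clgn was found in 17.4% of APP/PS1-ApoeKO cortex cells with Scoc (10.96 to 25.6%) and in 9.26% of those without (3.08 to 20.3%). The same shares were 13.6% (9.54 to 18.5%) and 11.5% (5.41 to 20.8%) in APP/PS1-ApoeKO hippocampus, and 16.7% (12.1 to 22.1%) and 20.3% (12.04 to 30.8%) in C57BL/6-ApoeKO cortex. The intervals overlapped in each group, and the order of the shares was not the same in all 3. The median Scoc level over cells with Clgn was 134.7, 162.0 and 136.6 RPM, beside 106.2, 137.7 and 131.7 RPM over cells without. In Apoe-carrying groups 0 of 910 cells had both; the 2 cells with Clgn held 0 Scoc reads, and the products summed to 0.285 cells.

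**Figure D3:**
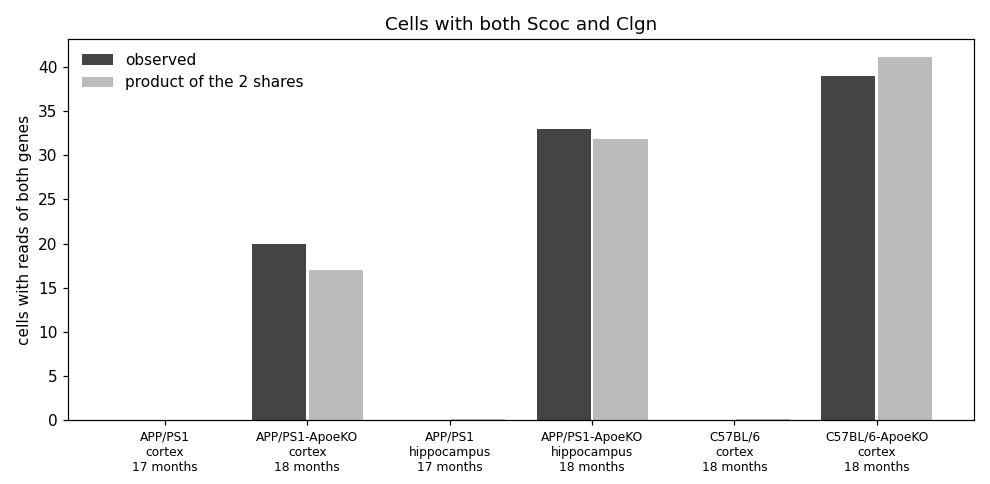
Number of cells with reads of both Scoc and Clgn (y axis) in each group (x axis), as observed (dark) and as the product of the 2 shares gives (light). The counts of 20, 33 and 39 in the knockout groups lie near the products of 17.0, 31.8 and 41.1.

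The cells of each group were also split by a read of Apoe, of Cst7 or Clec7a, markers of the amyloid-associated microglial state, or of Ifit3 or Bst2, interferon-induced genes. The splits by Apoe used the Apoe-carrying groups alone. In 0 of 54 such splits, over 5 genes, both members and the groups, did the 2 shares have intervals apart. The splits of Clgn in Apoe-carrying groups could not show this, since at most 1 cell of each such group held Clgn. In APP/PS1-ApoeKO cortex, Scoc was read in 79.2% of the 24 cells with Cst7 (57.8 to 92.9%) and 60.7% of the 145 without (52.2 to 68.7%). In APP/PS1 cortex, Scoc was read in 8.66% of the 277 cells with Apoe (5.63 to 12.6%) and 17.6% of the 34 without (6.76 to 34.5%). Several splits held under 20 cells, where large differences were not detectable; overlapping intervals do not show that the shares are alike.

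Within 1 Mb on either side, 56 other genes were in the table and 31 had at least 1 RPM on average. Of these, 6 (19.4%) were at least 2-fold higher in APP/PS1-ApoeKO cortex, 6 (19.4%) in hippocampus and 5 (16.1%) in C57BL/6-ApoeKO cortex, beside 16.2, 12.6 and 10.4% of all genes. At least 2-fold lower were 4 (12.9%), 4 (12.9%) and 5 (16.1%), beside 10.4, 8.46 and 8.19% of all genes. One gene, Rnf150, was higher in all 3 comparisons (3.23%, beside 1.58% of all genes), and one, Cacna1a, lower in all 3 (3.23%, beside 1.18%).

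Rnf150, which encodes a RING finger protein, ends 298.6 kb before Clgn at chr8:82863356-83091268. It was at 20.4, 16.0 and 8.37 RPM in the 3 knockout groups, in 15, 22 and 15 cells. It had 5 reads, 1 read and 2 reads in the matching Apoe-carrying groups, each in 1 cell. Cacna1a, which encodes the pore subunit of a neuronal calcium channel, starts 930 kb beyond Scoc at chr8:84388440-84640246. It was at 41.1, 41.6 and 41.2 RPM in the Apoe-carrying groups and at 9.79, 2.92 and 6.66 RPM in the knockout groups, 4.20-fold (3.89 to 4.53), 14.2-fold (12.9 to 15.7) and 6.19-fold (5.85 to 6.56) lower.

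The nearest measured gene on the Clgn side is Elmod2, which encodes a regulator of Arl GTPases and lies 57.4 kb away. It was at 34.2, 40.1 and 33.5 RPM with Apoe and 61.2, 54.9 and 52.4 RPM without, log2 differences of 0.83, 0.45 and 0.64. Mgat4d, the annotated gene next to Clgn at 7.55 kb, had 0 reads in all 6 groups. On the Scoc side, Ndufb7, a subunit of respiratory complex I 108 kb away, differed by 0.47, -0.10 and 0.02, and Tecr, an enzyme of fatty acid elongation 113 kb away, by -0.37, -0.02 and -0.23.

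**Figure D4:**
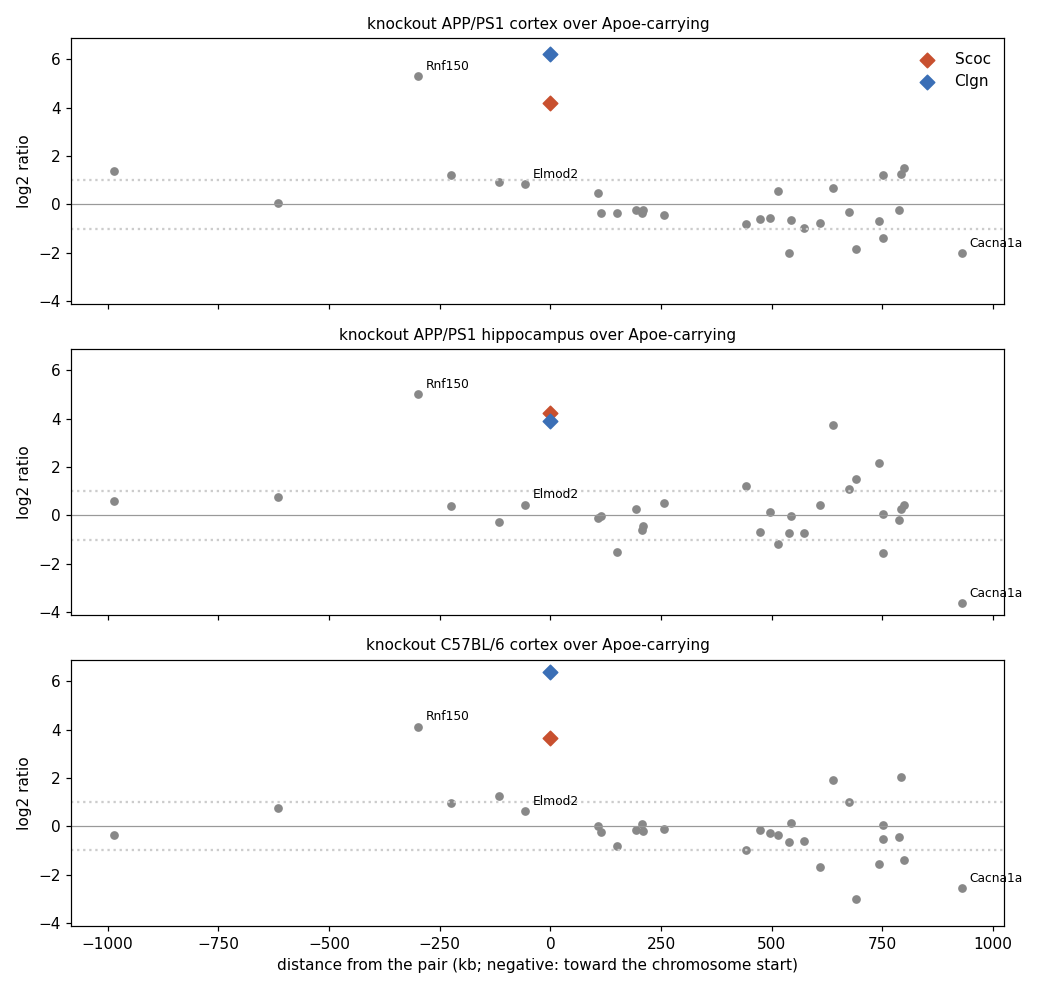
Log2 difference of RPM + 0.5, knockout over Apoe-carrying (y axis), of the 31 measured genes within 1 Mb (grey) and of Scoc (red) and Clgn (blue), by distance from the pair in kb (x axis), 1 panel per comparison; dotted lines mark 2-fold. Rnf150 lies above and Cacna1a below 2-fold in each panel, and Elmod2, 57.4 kb away, within it.

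Among 9747 genes with at least 1 RPM on average and reads in at least 5% of the cells of 1 group, likeness to Scoc was measured as the root mean square difference of log2(RPM + 0.5), centred over the 6 groups. The 5 named genes most like Scoc were Mmp28 (0.35), Trim5 (0.39), Zfp984 (0.44), Hpgd (0.48) and Cd276 (0.54). Mmp28, Trim5 and Zfp984 were at 0 to 0.536 RPM in the Apoe-carrying groups, where Scoc was at 8.25 to 15.2 RPM. Their distances therefore depend on the added 0.5 RPM. Hpgd, which encodes the enzyme that inactivates prostaglandins, resembled Scoc in share as well: it was read in 2.89, 4.03 and 12.3% of Apoe-carrying and 65.1, 75.4 and 67.7% of knockout cells. It lies on chromosome 8 too, at 56294585 to 56321043. The other 4, on chromosomes 11, 7, 4 and 9, were read in at most 13.4% of the cells of any group.

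The genes most like Clgn were Trim30d (0.66), Trim12a (0.80), Trim5 (0.84), Rnf150 (0.90) and Fblim1 (0.92), and the distance between Scoc and Clgn themselves was 1.07. Trim30d, Trim12a and Trim5 belong to one cluster of related TRIM genes on chromosome 7, and reads can be split between such near copies, so their single levels are uncertain. Trim12a was at most 0.0106 RPM in the Apoe-carrying groups and at 51.9, 34.7 and 57.4 RPM in the knockout groups. Likeness was computed over 6 groups that also differ in amyloid transgene, tissue, age and lane, and says nothing of shared control. The genes like Scoc and Clgn were picked on these same levels, so their higher levels in the knockout groups were set by the choice. Of them, only Trim5 and Hpgd were read in at least 5% of the cells of an Apoe-carrying group.

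**Figure D5:**
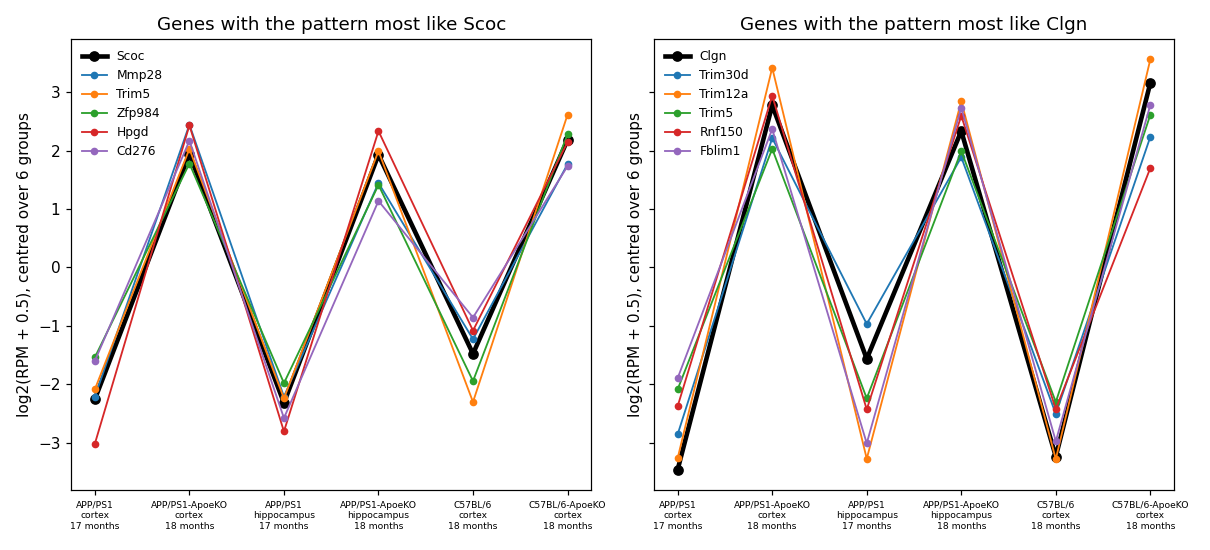
Centred log2(RPM + 0.5) (y axis) of Scoc (left, black) and Clgn (right, black) with the 5 genes most like each, over the 6 groups (x axis). Each line is higher in the 3 knockout groups than in the 3 others, which follows from choosing the genes by likeness over these groups. The point of Clgn in APP/PS1 hippocampus, 1.36 RPM, comes from 1 cell.

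Of 20 genes for its binding partners, the Golgi and the start of autophagy, 19 were in the table and 18 were measured. At least 2-fold higher were 2 (Ulk2 and Arl2) in APP/PS1-ApoeKO cortex, 1 (Gcc1) in hippocampus and 2 (Pik3c3 and Gcc1) in C57BL/6-ApoeKO cortex. These are 11.1, 5.56 and 11.1% of the list, beside 16.2, 12.6 and 10.4% of all genes, and 0 were 2-fold lower, beside 10.4, 8.46 and 8.19%. Counts this small do not set the list apart. With TMM scaling, 0, 1 and 2 were higher, beside 11.9, 11.8 and 9.74% of all genes. On that scaling 0, 0 and 1 were lower, beside 13.2, 9.24 and 8.62%. The list's median log2 difference was 0.21, -0.12 and 0.08, beside 0.19, 0.07 and 0.04 for all genes. Fez1, a direct partner of Scoc, had reads in 3 cells, all in C57BL/6-ApoeKO cortex. Its relative Fez2 was at 125.3, 155.7 and 244.3 RPM with Apoe and at 229.7, 250.5 and 205.2 RPM without. Ulk1, the kinase that starts autophagy, was at 22.4, 23.1 and 17.9 RPM with Apoe and 24.6, 12.7 and 15.9 without. Uvrag, which binds Becn1, was at 63.5, 58.7 and 80.8 RPM with and 79.1, 59.8 and 75.7 without.

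Of 17 genes for glycoprotein folding in the endoplasmic reticulum, 15 were measured, 0 were 2-fold higher and 1, Calr, was 2-fold lower in both APP/PS1 comparisons (2 and 1 genes there with TMM scaling). The 1 gene is 6.67% of the list, beside 10.4 and 8.46% of all genes lower in those comparisons, and 16.2, 12.6 and 10.4% of all genes were higher in the 3 comparisons. With TMM scaling the 2 and 1 genes are 13.3 and 6.67% of the list, beside 13.2 and 9.24% of all genes lower. Counts this small do not set this list apart either. Calr, the soluble relative of calnexin, was at 683.9, 702.0 and 632.0 RPM with Apoe and 301.6, 318.8 and 410.3 RPM without, log2 differences of -1.18, -1.14 and -0.62. Canx, calnexin itself and the closest relative of Clgn, was at 463.6, 391.8 and 543.4 RPM with Apoe and 510.1, 474.3 and 518.2 without. Hspa5, the main chaperone of that compartment, was at 606.8, 700.7 and 759.9 RPM with and 496.1, 489.6 and 594.6 without. The list's median was -0.31, -0.19 and -0.10. It was below the median of all genes in each comparison, also with TMM scaling, which gave -0.56, -0.25 and -0.15 beside -0.04, 0.01 and 0.00 for all genes. In APP/PS1 cortex TMM moved the median of all genes from 0.19 to -0.04, and the counts at least 2-fold higher and lower from 2064 and 1320 to 1506 and 1675.

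Of 15 other germline genes, with Calr3 and Pdilt also on the folding list, 11 were in the table and 7 had reads. The 1 measured gene was Adam3, which encodes a sperm membrane protein. It was at 3.73, 3.15 and 7.62 RPM with Apoe and 14.4, 16.8 and 11.04 RPM without, read in 10, 13 and 30 and in 20, 38 and 30 cells. It was at least 2-fold higher in both APP/PS1 comparisons (log2 differences of 1.81 and 2.24), as were 16.2 and 12.6% of all genes, and differed by 0.51 in C57BL/6. Ddx4, Dazl, Prm1 and Tnp2 were at 0 in all 6 groups. Calr3, a germ-cell calreticulin, was at 0.919, 0.743 and 3.60 RPM with Apoe and 0, 0.165 and 0.216 RPM without.

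Summed markers of other cell types were low beside those of microglia. Those of oligodendrocytes were not low beside Clgn, at 27.2 to 48.6 RPM in the knockout groups. Any oligodendrocyte marker was read in 19.05 to 31.6% of the cells of a group. Any endothelial marker was read in 3.30 to 13.7%, any neuronal marker in 1.87 to 11.8%, and those of each other type in at most 8.63%. The summed level over the 6 groups was 0.0066 to 8.92 RPM for 5 markers of border-associated macrophages, 3.21 to 28.3 RPM for 4 of monocytes and at most 0.546 RPM for 4 of neutrophils. It was 2.44 to 16.5 RPM for 7 of neurons, 3.01 to 21.9 RPM for 5 of astrocytes, 62.5 to 105.0 RPM for 5 of oligodendrocytes and 5.02 to 28.8 RPM for 4 of endothelial cells. Lyve1, Mog and Gad1 were at 0 in all 6 groups. None of these sums was higher in every knockout group than in every Apoe-carrying group except that of oligodendrocyte markers, at 77.4, 77.8 and 105.0 RPM against 68.8, 62.5 and 74.6; its part in the Scoc and Clgn levels was not tested.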

How the data were processed

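The deposited table holds raw read counts per gene and cell, as whole numbers, made by the authors; the submitters' processing notes name STAR 2.5.2, featureCounts 1.5.1, Seurat 2.3.1 and build mm10. The annotation and strand setting are not given in the sources used here. Counts of the 1713 cells whose labelled read total equalled the table's were summed per group and divided by the summed total (RPM). The 165 APP/PS1-ApoeKO cortex cells without a labelled total were used in alternatives. The members and lists were chosen with earlier results of these data known. Named genes were Scoc, Clgn, list members, protein-coding genes within 1 Mb and the 5 genes most like each member. Ratios have exact conditional 95% count intervals, shares Clopper-Pearson intervals. A count of 0 was set to 3 reads in ratios. Genes needed 1 RPM on average. Python 3.11.15, numpy 2.4.6, pandas 2.3.3, scipy 1.17.1 and, for TMM, edgeR 4.0.16 in R 4.3.3 were used. Ratios and intervals were tested on counts simulated as independent reads of a group. That simulation held no cells and no PCR copies, so it cannot show that the intervals are wide enough for these data. Alternatives covered scaling, thinning, pseudocounts and lanes.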

Additional observations from a re-analysis of the deposited data

Results flagged for a closer look

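The 165 APP/PS1-ApoeKO cortex cells of lane 33, which have no read total in the labels and enter no main comparison, carried both genes above the Apoe-carrying groups. Scoc was at 163.0 RPM in them, with reads in 80.0% of cells (73.1 to 85.8%), and Clgn at 15.7 RPM, with reads in 7.88% (4.26 to 13.1%). The labelled cells of that group had 167.5 and 37.2 RPM.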

How the results depend on the processing

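Scoc and Clgn kept a positive log2 difference in the 3 knockout comparisons under each alternative run. The pair was chosen on these ratios, so the kept sign is no test. The size was less stable: 36 alternatives stayed within the count interval of the reported difference and 34 moved outside it. With median-of-ratios size factors APP/PS1 cortex gave 3.99 for Scoc and 6.03 for Clgn, and with TMM 3.95 and 6.09. Means of cells gave 3.96 and 3.58 in APP/PS1 hippocampus. Thinned cells gave Scoc 4.09 and Clgn 3.65 there, and Clgn 6.07 in APP/PS1 cortex. Without mitochondrial and rRNA reads Clgn was 6.37 in APP/PS1 and 6.54 in C57BL/6 cortex. With 0.05 RPM added, Clgn was 9.54, 4.28 and 8.52 in APP/PS1 cortex, hippocampus and C57BL/6; with 5 RPM added it was 3.08, 2.34 and 3.40, and Scoc 3.66, 3.69 and 3.33. With the 165 unlabelled cells Clgn was 5.77. Without the cell with most reads in each group, Scoc was 4.55, 4.53 and 3.90, and Clgn 5.86 and 5.64 in APP/PS1 cortex and hippocampus. The 165 cells also moved the Clgn ratio of hippocampus to cortex in APP/PS1-ApoeKO from 0.733 to 1.02, and that of APP/PS1-ApoeKO to C57BL/6-ApoeKO cortex from 0.764 to 0.551, an alternative added after the data were seen. Lanes 37 and 38 alone gave Clgn 5.94 and 6.82. Leaving out 1 lane at a time gave Scoc 3.87 to 4.69 in APP/PS1 cortex, Clgn 3.13 to 5.79 in hippocampus and 5.94 to 6.82 in C57BL/6, a C57BL/6 share with Scoc of 11.6 to 19.8%, and a share with Clgn of 0 to 0.699% in APP/PS1 hippocampus and 0 to 0.617% in C57BL/6. The cause of these shifts was not tested. At 4-fold, 4.72, 4.02 and 3.20% of genes were higher. The ratio of observed to expected cells with both genes stayed within its interval in 13 of 13 alternatives. Windows of 5 Mb and beyond, added after the data were seen, kept the share of higher neighbours within its interval in 8 of 8. That interval is wide, at 7.45 to 37.5% in APP/PS1 cortex. The window of 5 Mb includes the genes within 1 Mb, and the one beyond holds other genes. This tally therefore cannot show that the share is stable. No paired analysis was possible because the replicate numbers are well positions, which pair no samples, and each group is 1 sample; values within the shared lanes 37 and 38 are given with the results. Few cells with Clgn limit its levels.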
